A study of Mus musculus with 48 samples.

Results

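E-CADHERIN-positive (E-CAD+) and E-CADHERIN-negative (E-CAD-) cells of the 3NG- gate were compared during OKMS reprogramming of mouse embryonic fibroblasts (MEFs). The comparison holds 3 E-CAD+ and 3 E-CAD- libraries, which were chosen by their labels and make up 6 of the 48 libraries of the series. The gate name means that the cells were CD44 low and ICAM1 high, the surface profile in which embryonic stem cells (ESCs) are found, but had not activated the *Nanog*-GFP reporter (NG-). Both populations came from TNG OKMS MEFs, which descend from the TNG OKMS ESC line. These cells carry GFP in 1 *Nanog* allele and, in an intron of *Sp3*, a doxycycline-inducible cassette with *Oct4*, *Klf4*, *Myc*, and *Sox2* in that order together with a CAG-driven reverse transactivator. The MEFs were taken from chimeric midgestation embryos, diluted with an excess of wild-type MEFs, and kept in ESC medium with doxycycline and vitamin C. The series text gives day 10 as the day of sorting for every intermediate, whereas the culture protocol gives 10 or 15 days. The cassette also expresses mOrange, for which the cytometer had a channel, but the text of the methods does not state whether the sorted cells were gated on it. The other libraries were used to estimate the spread, and OKMS MEFs, OKMS 2NG- (CD44 low, ICAM1 low) and 3NG+ cells, and TNG OKMS ESCs, with 2 or 3 libraries each, also served as reference points.

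E-CADHERIN, encoded by *Cdh1*, joins neighboring epithelial cells at adherens junctions. Fibroblasts are mesenchymal cells that lack it, and they must pass through a mesenchymal-to-epithelial transition (MET) on the way to pluripotency, since ESCs are epithelial in their junctions. In MET, repressors of the SNAI, ZEB, and TWIST families fall and junction proteins, keratins, and epithelial splicing factors rise. The comparison asks which genes distinguish cells before and after this step when both lie in the same CD44/ICAM1 gate.

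The single-cell tagged reverse transcription method (STRT), used here on RNA of sorted cell pools, counts reads at the 5′ end of each transcript. The 6 libraries held 2868191 to 11206126 reads on transcripts, from 4200870 in E-CAD+ and from 2868191 in E-CAD-, and 12474 to 14677 transcripts with at least 1 read. Levels are given in CPM, for which the reads of a transcript were divided by the sum over all transcripts in that library and scaled to a total of 1000000. A level of 3 reads corresponds to 0.268 to 1.05 CPM in single libraries, a floor that covers counting error only. Mitochondrial transcripts took 7.20% to 10.6% of the reads in E-CAD+ and 9.42% to 12.4% in E-CAD- libraries. E-CAD+ replicate 3 stood apart, with correlations of 0.892 and 0.864 to the other E-CAD+ libraries, which were correlated at 0.929 (log2 CPM, over genes). The E-CAD- libraries were correlated at 0.884 to 0.915. The labels do not say whether replicates were separate cultures, so the spread between libraries of a condition may be technical. The p-values of the gene tests measure that spread as estimated over all 48 libraries of the series, not over these 6 alone.

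*Cdh1* was used for the sort and its RNA followed the labels. It was at 144, 137, and 147 CPM in the E-CAD+ libraries and at 8.59, 9.76, and 16.1 CPM in the E-CAD- libraries, so the groups were far apart (log2 difference 3.76 ± 0.46 SE, n = 3 each, FDR = 1.4e-06 in edgeR's quasi-likelihood test). E-CAD- cells were above OKMS MEFs, which had 0.344 CPM on average, and E-CAD+ cells were near TNG OKMS ESCs at 112 CPM. *Cd44* and *Icam1*, whose proteins define the gate, did not pass the test between the populations. *Cd44*, a hyaluronan receptor, was at 135, 125, and 9.18 CPM in E-CAD+ and at 159, 145, and 96.1 CPM in E-CAD- libraries, against 307 CPM in OKMS MEFs and 0.853 CPM in ESCs. E-CAD+ replicate 3 was the lowest of the 6 libraries but still above the ESC average. *Icam1* was between 5.18 and 23.8 CPM in all 6 libraries. *Nanog*, whose reporter was off in the sort, was at 20.3, 17.9, and 45.0 CPM in E-CAD+ and 12.6, 18.8, and 8.98 CPM in E-CAD- libraries, which overlap (FDR = 0.30). It was at 89.7 CPM in 3NG+ cells and at 0 reads in OKMS MEFs.

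Of the cassette factors, *Pou5f1* (Oct4) was higher in E-CAD+ cells, at 225, 154, and 475 CPM against 70.4, 55.8, and 46.8 CPM (log2 difference 2.41 ± 0.36 SE, FDR = 2.6e-05). The groups did not overlap, and E-CAD+ replicate 3 was the highest. *Klf4* (log2 difference -0.15 ± 0.37 SE), *Myc* (-0.56 ± 0.44), and *Sox2* (0.81 ± 0.38) did not pass the test, nor did *Sp3*, the gene that holds the cassette (-0.12 ± 0.31). *Myc* was at 65.3 to 81.6 CPM in E-CAD- and 13.7 to 63.2 CPM in E-CAD+ libraries, against 7.16 CPM in OKMS MEFs. The counts do not separate transcripts of the cassette from those of the endogenous loci.

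**Figure D1:**
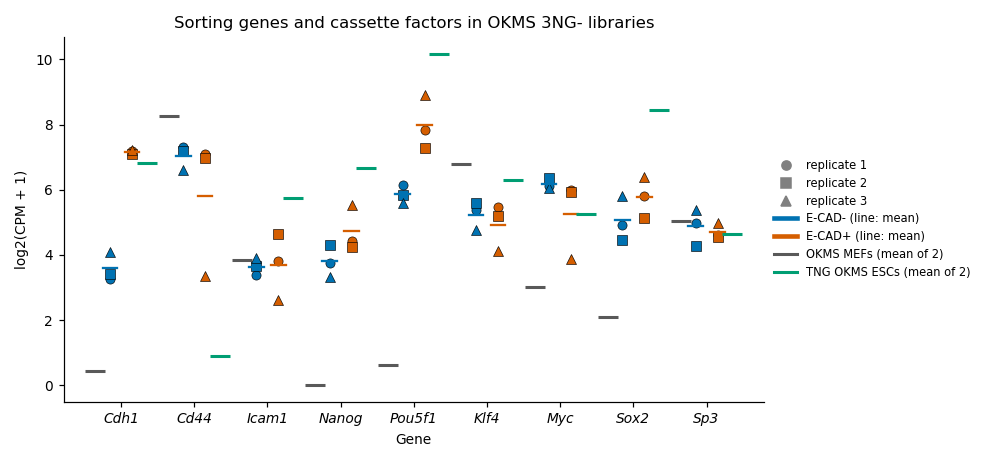
Levels of the sorting genes and cassette factors as log2(CPM + 1) in the 3 E-CAD- (blue) and 3 E-CAD+ (orange) libraries of the OKMS 3NG- gate; symbols mark the replicate, colored lines the mean, and gray and green lines the means of OKMS MEFs and TNG OKMS ESCs (2 libraries each). *Cdh1* and *Pou5f1* are separated between the populations, and replicate 3 of E-CAD+ is low in *Cd44* and *Myc*.

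Across all genes, 274 of the 15630 tested (1.75%) differed at an FDR of at most 0.05. Of these, 248 (1.59% of the genes tested) were higher and 26 (0.166%) lower in E-CAD+ cells. Here and below, the RNA of a sorted pool cannot tell fewer cells of a type from less RNA per cell. The CPM of all 3 E-CAD+ libraries lay above those of all 3 E-CAD- libraries in 228 of the 248, and below in all 26. Without any test, such a separation was seen in 1138 genes (7.28%) upward and 1393 genes (8.91%) downward. The number of calls rested on single libraries. It was 167 without E-CAD+ replicate 3 (160 higher, 1.02% of genes tested, and 7 lower, 0.0447%), 167 without E-CAD- replicate 2, and 180 without E-CAD- replicate 3. Of the 248 higher genes, 106 were called in each of the 6 fits that left out 1 of the libraries, and of the 26 lower genes 4 were (*Dpysl2*, *Mxd3*, *St3gal4*, and *Tppp3*).

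The levels of the called genes in MEFs and ESCs were then examined. These libraries enter neither population, although they took part in the filter, the scaling, and the estimate of the spread. On the log2(CPM + 1) scale, 199 of the 248 (80.2%) were at least 2-fold higher in TNG OKMS ESCs than in OKMS MEFs, against 23% of all genes tested, and 10 (4.03%) were at least 2-fold lower, against 24.1%. Of the 26 lower genes, 19 (73.1%) were higher in MEFs and 2, *Igfbpl1* and *Mapt*, were higher in ESCs. E-CAD+ cells were below the ESC average in 163 of the 248 genes, against 7943 of all 15630 genes tested.

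The epithelial list was drawn up with earlier results of these data known and holds 61 genes of junctions, polarity, keratins, splicing, and apical trafficking, 60 of which passed the filter on low counts. Of these, 22 rose in E-CAD+ cells and none fell, against 1.59% and 0.166% of all genes tested. At an unadjusted p under 0.05 it was 38 and 0, against 1236 and 641 of all 15630 genes. DESeq2 called 25 and 0, against 340 and 76 of all genes, and limma-voom 26 and 0, against 199 and 91. The median log2 difference was 2.07, or 1.99 with genes absent from a group set to the lowest fold that 3 reads in that group allow, against 0.00 over all genes, and 58 of 60 members were above 0. Among the 22 were *Epcam* and *Cdh3* at the surface, *Cldn4*, *Cldn6*, *Cldn7*, *F11r*, and *Lsr* of tight junctions, *Crb3* of the apical polarity complex, the desmosomal *Dsp* and *Dsg2*, the keratins *Krt8*, *Krt18*, and *Krt19*, the regulators *Esrp1*, *Grhl2*, and *Elf3*, and *Spint2*, *Prss8*, *Rab25*, and *Ap1m2*. Without E-CAD+ replicate 3, 21 members were called, and 14 of the 22 were called in each of the 6 omissions of a library. With all libraries numbered 2 left out, 13 were called.

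*Epcam*, a surface adhesion molecule of epithelia and ESCs, was at 83.7, 67.6, and 70.6 CPM in E-CAD+ and at 6.61, 14.6, and 6.53 CPM in E-CAD- libraries (log2 difference 3.14 ± 0.46 SE, FDR = 2.3e-05). The E-CAD+ libraries were close to each other and to ESCs, which had 92.7 CPM. *Cldn6*, a claudin of early embryonic epithelia, was at 142, 92.6, and 294 CPM against 11.1, 4.18, and 17.7 CPM (4.10 ± 0.61). *Cldn4*, another tight junction claudin, was at 80.2, 99.3, and 19.8 CPM against 11.1, 9.76, and 4.90 CPM (3.03 ± 0.54). In both claudins the groups did not overlap, although E-CAD+ replicate 3 was the highest library for *Cldn6* and the lowest E-CAD+ library for *Cldn4*. *Crb3*, a small transmembrane protein that sets up the apical domain, was at 50.4, 41.2, and 21.2 CPM against 3.8, 2.09, and 4.90 CPM (3.45 ± 0.57).

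The simple-epithelium keratins were among the most abundant of these transcripts. *Krt8* was at 338, 316, and 255 CPM in E-CAD+ and at 31.7, 44.6, and 41.4 CPM in E-CAD- libraries (3.06 ± 0.50, FDR = 0.00011). Its dimer partner *Krt18* was at 107, 75.7, and 126 CPM against 9.58, 7.67, and 17.7 CPM (3.25 ± 0.45, FDR = 1.2e-05). Over all libraries of the series 78.7% of the *Krt8* reads and 97.1% of the *Krt18* reads were placed uniquely. *Krt19* was at 166, 246, and 43.1 CPM against 17.5, 30.3, and 9.26 CPM, so that its E-CAD+ libraries differed among themselves by more than those of *Krt8* and *Krt18*.

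The called genes of epithelial trafficking were also separated. *Rab25*, a small GTPase of apical recycling, was at 74.4, 60.5, and 33.2 CPM in E-CAD+ libraries and at 4.46, 1.74, and 0 CPM in E-CAD- libraries (4.70 ± 0.78, FDR = 0.0002). *Ap1m2*, the epithelial adaptor subunit of basolateral sorting, was at 103, 97.6, and 80.5 CPM against 6.11, 11.2, and 0.817 CPM (4.09 ± 0.60, FDR = 2.6e-05). Neither had a read in OKMS MEFs. *Esrp1*, the splicing factor of epithelial isoforms, was at 30.0, 24.8, and 34.4 CPM against 3.14, 4.53, and 0 CPM (3.64 ± 0.70, FDR = 0.0013), and was near its ESC level of 21.7 CPM. Several well-known members were not called. *Tjp1* (ZO-1, log2 difference 0.34, FDR = 0.69) and *Ctnnd1* (p120-catenin, 0.24, FDR = 0.77), which mesenchymal cells also express, had small differences, and these groups overlapped. *Ocln* (occludin) was at 12.9, 12.6, and 0 CPM against 0.495, 0, and 1.63 CPM (FDR = 0.18). The transcription factor *Ovol1* was at 5.35, 2.62, and 1.18 CPM and had no read in the E-CAD- libraries (at least 16.2-fold higher, FDR = 0.054).

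To show the DNA next to the starts of these genes, RefSeq promoters (GRCm38.p6, 250 bases before to 50 bases after the most 5′ annotated start) were searched on both strands for the E-box CACCTG, whose reverse complement is CAGGTG. This is the sequence that ZEB and SNAI repressors are known to bind. Of the 22 epithelial genes higher in E-CAD+ cells, 14 had a promoter in the table, and 13 of these (92.9%) held at least 1 match. Of 18 uncalled members with a promoter, 8 (44.4%) did. The share was 20% over all 27025 promoters of the table and 18% over 10799 promoters of genes tested. It was 35.2% (51 of 145) in genes higher in E-CAD+ outside the epithelial list, and 0 of 12 in the genes lower in E-CAD+. A match is a description of the letters in this window and no test was made of the shares. The promoters below are of an adhesion molecule, a claudin, and a polarity gene with matches (in capitals) and of the 1 called epithelial gene without any. Each is written 5′ to 3′ on the strand of the gene. Epcam lies on the plus strand at chr17:87635729-87636028, Cldn4 on the minus strand at chr5:134946885-134947184, Crb3 on the plus strand at chr17:57061951-57062250, and Cldn7 on the plus strand at chr11:69964529-69964828.
Epcam: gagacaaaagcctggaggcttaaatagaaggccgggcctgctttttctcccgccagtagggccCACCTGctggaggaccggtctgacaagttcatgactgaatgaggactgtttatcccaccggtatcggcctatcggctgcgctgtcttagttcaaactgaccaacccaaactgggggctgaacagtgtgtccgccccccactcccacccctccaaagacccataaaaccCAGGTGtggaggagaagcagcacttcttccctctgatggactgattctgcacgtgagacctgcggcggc
Cldn4: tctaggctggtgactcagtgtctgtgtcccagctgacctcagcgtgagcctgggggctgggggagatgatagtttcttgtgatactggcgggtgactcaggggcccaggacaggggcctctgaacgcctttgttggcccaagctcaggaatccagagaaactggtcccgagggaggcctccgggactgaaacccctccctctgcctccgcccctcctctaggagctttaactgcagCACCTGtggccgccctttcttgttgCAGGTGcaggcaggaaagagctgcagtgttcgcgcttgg
Crb3: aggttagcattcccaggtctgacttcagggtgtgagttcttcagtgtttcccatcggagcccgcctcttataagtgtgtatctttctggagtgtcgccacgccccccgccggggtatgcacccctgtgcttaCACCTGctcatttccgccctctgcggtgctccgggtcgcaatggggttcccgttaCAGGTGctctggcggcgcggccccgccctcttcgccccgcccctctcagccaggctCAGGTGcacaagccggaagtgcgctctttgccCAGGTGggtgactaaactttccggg
Cldn7: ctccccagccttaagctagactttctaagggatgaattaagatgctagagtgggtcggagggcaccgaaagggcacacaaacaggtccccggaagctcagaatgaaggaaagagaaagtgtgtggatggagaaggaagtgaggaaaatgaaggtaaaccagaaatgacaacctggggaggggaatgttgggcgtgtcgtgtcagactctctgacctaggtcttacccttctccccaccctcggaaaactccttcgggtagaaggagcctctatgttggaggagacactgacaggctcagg

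The first bases of the matches lay at -187 and -19 from the start of *Epcam*, at -14 and 12 in *Cldn4*, and at -118, -63, -7, and 26 in *Crb3*, counting the first transcribed base as 1. *Cldn7*, without a match, was at 73.0, 67.1, and 44.3 CPM in E-CAD+ and 6.61, 8.02, and 5.44 CPM in E-CAD- libraries (log2 difference 3.30 ± 0.75 SE, FDR = 0.0091), so its groups did not overlap either.

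Of 24 tested mesenchymal factors, 6 were lower and 0 higher in E-CAD+ cells at an unadjusted p under 0.05, against 641 and 1236 of all 15630 genes. At the FDR limit 1 of the 24 fell, against 0.166% of all genes tested. This was *Zeb1*, a zinc-finger repressor of *Cdh1*, at 2.86, 4.52, and 1.41 CPM against 13.4, 15.3, and 16.1 CPM (log2 difference -2.24 ± 0.61 SE, FDR = 0.042). The groups did not overlap, but the call was kept in 1 of the 6 omissions of a library, with FDRs from 0.042 to 0.26. In OKMS MEFs *Zeb1* was at 40.4 CPM. The median of the list was -1.52, with 21 of 24 members below 0 and 10 whose libraries were all lower in E-CAD+, against 8.91% of all genes tested. The best-known repressors besides *Zeb1* were not called, although all E-CAD+ libraries lay below all E-CAD- libraries for *Snai2* and *Zeb2*. The ranges of *Snai1* and *Twist1* overlapped. *Snai1* was at 5.80, 3.81, and 4.24 CPM in E-CAD+ and at 3.47, 6.62, and 9.26 CPM in E-CAD- libraries (FDR = 0.92), and had 175 CPM in OKMS MEFs. *Snai2* was at 0.357, 1.90, and 1.18 CPM against 5.12, 4.18, and 4.63 CPM (FDR = 0.46), *Twist1* at 0.942 to 2.94 CPM against 2.81 to 6.97 CPM (FDR = 0.66), and *Zeb2* at 2.41 to 5.95 CPM against 8.37 to 22.6 CPM (FDR = 0.42). *Prrx1*, a limb and mesenchyme homeobox factor, was at 14.5, 9.05, and 3.06 CPM against 25.6, 21.6, and 31.6 CPM (FDR = 0.31), well under the 226 CPM of OKMS MEFs in both.

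None of the 25 fibroblast genes was called by edgeR, with 11 at an unadjusted p under 0.05, all lower (641 of all 15630 genes were lower at that p). Without the filter on low counts edgeR called 14 of them, all lower, against 164 lower of all 19768 genes then tested. Of the 25, 23 had a log2 difference below 0, the median was -1.52 (-1.35 with absent genes at their bound), and 11 had all E-CAD+ libraries below all E-CAD- libraries, against 8.91% of all genes tested. DESeq2 called 3 and limma-voom 1 of them, all lower, against 76 and 91 lower of all 15630 genes. *Vim* (vimentin, the intermediate filament of mesenchyme) was nearest to the threshold, at 273, 247, and 98.4 CPM in E-CAD+ and 876, 600, and 573 CPM in E-CAD- libraries (-1.64 ± 0.46, FDR = 0.054). It was at 2854 CPM in OKMS MEFs. *Thy1*, a surface marker of MEFs, was at 20.2, 15.9, and 8.95 CPM against 45.6, 25.5, and 47.4 CPM (FDR = 0.38), compared with 568 CPM in OKMS MEFs. Both populations were therefore far below MEFs in these genes, and E-CAD+ replicate 3 had the lowest *Vim* and *Thy1* of the 6 libraries.

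Matrix genes gave 3 calls among 42, all lower in E-CAD+ (0.166% of all genes were lower), with a median of -1.24 and 40 members below 0. In 26 of the 42 all E-CAD+ libraries lay below all E-CAD- libraries, against 8.91% of all genes tested. Without the filter on low counts 22 of the 42 were called lower, against 164 of all 19768 genes then tested. *Vcan* (versican, a large proteoglycan) was at 11.3, 19.8, and 11.3 CPM against 38.1, 44.3, and 70.5 CPM (-1.75 ± 0.39, FDR = 0.008). *Fbn2* (fibrillin-2, of microfibrils) was at 22.8, 33.6, and 9.42 CPM against 83.4, 78.4, and 124 CPM (-2.01 ± 0.52, FDR = 0.026), and *Col3a1* (a fibrillar collagen) at 78.5, 85.0, and 50.6 CPM against 197, 180, and 311 CPM (-1.57 ± 0.44, FDR = 0.049). Without E-CAD+ replicate 3 none of these 3 passed, with FDRs of 0.066, 0.22, and 0.28. The major fibroblast collagen gene *Col1a1*, at 36.7 to 56.2 CPM against 125 to 146 CPM, did not pass (-1.35, FDR = 0.18). Of 15 matrix proteases and their inhibitors, *Timp1* (a metalloproteinase inhibitor) was called, at 146, 158, and 108 CPM against 336, 349, and 293 CPM (-1.15 ± 0.27, FDR = 0.014). It too was not called without E-CAD+ replicate 3 (FDR = 0.13).

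Pathways that act on MET were examined next. The TGF-β pathway promotes the mesenchymal state. Of its 29 tested members 1 rose and 1 fell, against 1.59% and 0.166% of all genes tested. The median was -0.50. The higher one was *Tgif1*, a corepressor of SMAD signaling, at 93.9, 73.1, and 119 CPM against 46.1, 44.3, and 24.0 CPM (1.43 ± 0.31, FDR = 0.0048), and the lower one was the secreted target *Tgfbi*, at 21.6, 10.7, and 11.3 CPM against 73.7, 48.5, and 87.1 CPM (-2.14 ± 0.57, FDR = 0.037). Without E-CAD+ replicate 3 their FDRs were 0.062 and 0.18. None of 20 BMP pathway genes was called by edgeR, DESeq2, or limma-voom (2 at an unadjusted p under 0.05), with a median of 0.13 (-0.04 with absent genes at their bound). *Id1*, the classic BMP target, was at 86.0, 84.3, and 103 CPM against 95.1, 101, and 141 CPM (FDR = 0.97). Of 28 integrin and laminin genes, *Lama5*, the α chain of epithelial and ESC laminins, rose (1.22 ± 0.33, FDR = 0.044), a call kept in 1 of 6 omissions. No actin or contractile gene (of 24) was called by any of the 3 tools, with 1 at an unadjusted p under 0.05.

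**Figure D2:**
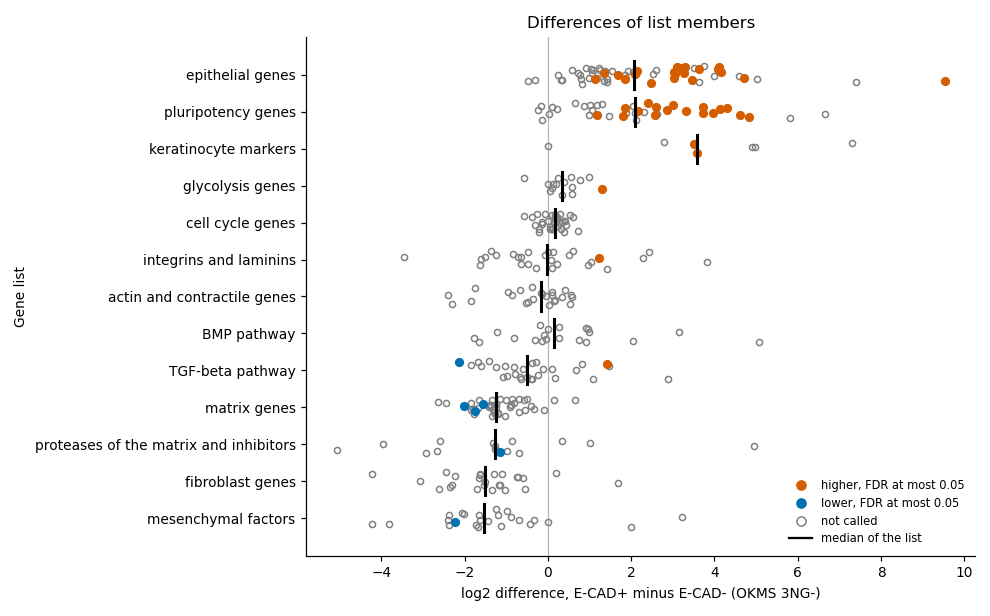
Log2 difference (E-CAD+ minus E-CAD-, OKMS 3NG-) of each tested member of 13 gene lists; filled points passed an FDR of 0.05 upward (orange) or downward (blue), open points did not, and the black line is the median. The epithelial and pluripotency lists lie to the right with 22 and 17 genes called, and the matrix, fibroblast, and mesenchymal lists lie to the left with few calls.

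Pluripotency genes were the other list with many calls, although neither population had activated the *Nanog* reporter. Of 39 tested members, 17 rose in E-CAD+ cells and none fell, against 1.59% and 0.166% of all genes tested. At an unadjusted p under 0.05 it was 28 and 0, against 1236 and 641 of all 15630 genes. DESeq2 called 18 and 0, against 340 and 76 of all genes, and limma-voom 10 and 0, against 199 and 91. The list had a median log2 difference of 2.09, with 36 members above 0. Without E-CAD+ replicate 3, 11 were called and the median was 1.34, and 11 were called in each of the 6 omissions. That replicate had the highest level of the E-CAD+ libraries in many of them, and in 152 of the 248 genes that were higher overall. By role, 6 of 13 transcription factors of the naive state, 8 of 14 *Dppa* and other late genes, and 3 of 8 signaling genes were called, and none of 4 surface genes.

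*Dppa5a*, an RNA-binding protein gene that is abundant in ESCs, had the largest level. It was at 1837, 1271, and 4448 CPM in E-CAD+ and at 162, 110, and 59.6 CPM in E-CAD- libraries (log2 difference 4.62 ± 0.48 SE, FDR = 4e-08), against 5.16 CPM in OKMS MEFs and 11417 CPM in ESCs. *Dppa3* (Stella) was at 204, 122, and 542 CPM against 12.1, 4.88, and 15.2 CPM (4.84 ± 0.82, FDR = 0.00025), so that all 3 E-CAD+ libraries were above the 72.7 CPM of ESCs. *Dppa2* (4.30 ± 0.75) and *Dppa4* (3.97 ± 0.66), a pair of chromatin factors that act together, were also higher, although only 12.9% of the *Dppa4* reads of the series had a unique position, so its value is uncertain. *Utf1*, a chromatin-associated ESC factor, was at 44.3, 17.4, and 57.7 CPM against 3.14, 3.49, and 0.544 CPM (4.13 ± 0.57, FDR = 1.3e-05).

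Of the naive transcription factors, *Esrrb*, an orphan nuclear receptor, was at 18, 17.9, and 27.1 CPM against 1.82, 3.49, and 0 CPM (3.72 ± 0.49, FDR = 6.3e-06). E-CAD+ cells remained below the 173 CPM of ESCs. *Zfp42* (Rex1) was at 78.6, 62.1, and 171 CPM against 7.27, 8.02, and 10.3 CPM (3.73 ± 0.49, FDR = 5.9e-06), with 955 CPM in ESCs. *Tdgf1* (Cripto), the NODAL co-receptor, was at 157, 111, and 348 CPM against 23.6, 60.0, and 67.8 CPM (2.17 ± 0.41, FDR = 0.00095). Other well-known members did not pass the test. *Lin28a*, a translational regulator, was at 29.4, 17.9, and 117 CPM against 2.31, 4.88, and 37.3 CPM (FDR = 0.30), with replicate 3 the highest in both populations, and the TGF-β family ligand *Gdf3* was at 30.3, 33.6, and 91.3 CPM against 34.8, 33.5, and 91.2 CPM (FDR = 1), nearly equal at each replicate number.

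**Figure D3:**
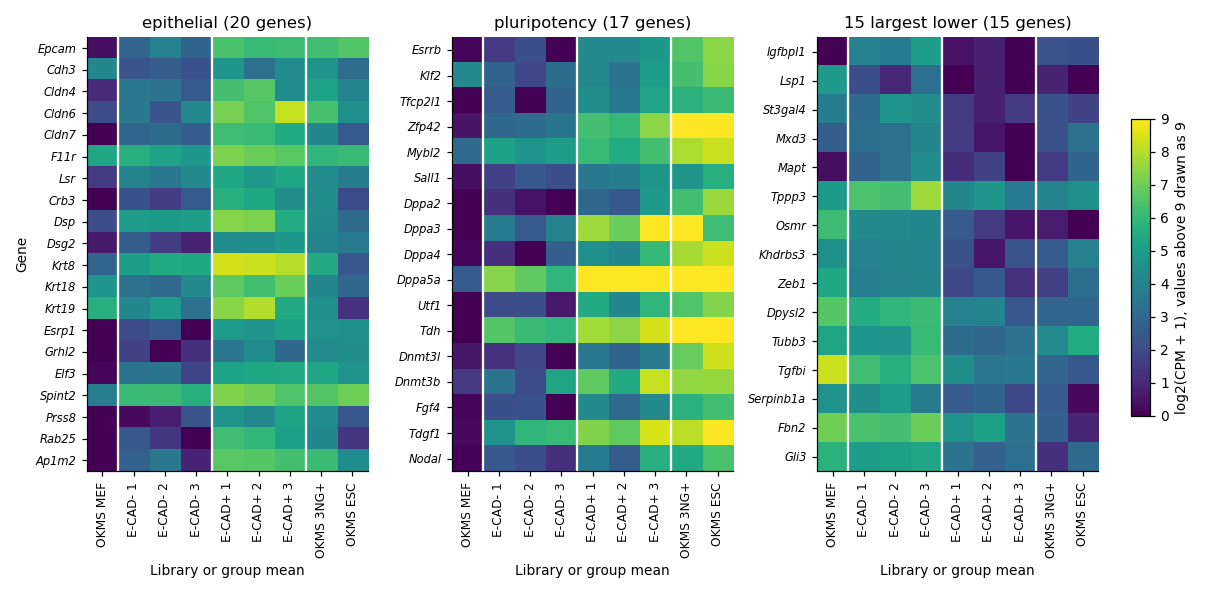
Levels as log2(CPM + 1) of 20 called epithelial genes, the 17 called pluripotency genes, and the 15 genes with the largest decrease in E-CAD+ cells, in the mean of OKMS MEFs, the 6 libraries of the OKMS 3NG- gate (numbers are replicates), and the means of OKMS 3NG+ cells and TNG OKMS ESCs. *Krt8* is brighter in the E-CAD+ libraries (255 to 338 CPM) than in MEFs (6.58 CPM) or ESCs (4.42 CPM), whereas *Zfp42* increases further toward ESCs.

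Some genes were higher in E-CAD+ cells than in both MEFs and ESCs. In 36 of the 248 (14.5%) the E-CAD+ average was at least 2-fold above both OKMS MEFs and TNG OKMS ESCs on the log2(CPM + 1) scale, against 3.58% of all genes tested, and in 20 it was also 2-fold above OKMS 3NG+ cells. The call used the same E-CAD+ values, so that this share is a description. Of the 36, 13 were members of the epithelial list (among them *Ap1m2*, *Cldn4*, *Cldn6*, *Cldn7*, *Crb3*, *Dsp*, *Krt8*, *Krt18*, *Krt19*, *Lsr*, *Prss8*, and *Rab25*). *Krt8*, for example, had 42.3 CPM in 3NG+ cells and 4.42 CPM in ESCs. *Dppa3* was among the 36 but had 903 CPM in 3NG+ cells.

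Of 7 keratinocyte markers, 2 were higher in E-CAD+ cells, against 1.59% of all genes tested. At an unadjusted p under 0.05, 5 were higher and 0 lower, against 1236 and 641 of all 15630 genes. The median log2 difference was 3.58, with 6 members above 0 and 0 below. *Sfn* (stratifin, a 14-3-3 protein of stratified epithelia) was at 127, 124, and 42.4 CPM against 12.2, 13.2, and 1.91 CPM (3.50 ± 0.61, FDR = 0.00031), and *Krt17*, a keratin of activated keratinocytes, at 148, 170, and 7.77 CPM against 14.4, 12.2, and 1.63 CPM (3.58 ± 0.96, FDR = 0.039). The *Krt17* level of E-CAD+ replicate 3 lay below those of E-CAD- replicates 1 and 2. *Krt6a* was at 51.3 and 94.5 CPM in E-CAD+ replicates 1 and 2, at 0 reads in replicate 3, and at 1.09 to 2.79 CPM in E-CAD- libraries (FDR = 0.19). The defining basal keratins were low, with *Krt5* at 3.84, 4.52, and 0.235 CPM and *Krt14* at 11.8, 19, and 0 CPM in E-CAD+ libraries. The summed level of the list was 342, 413, and 50.4 CPM in E-CAD+ and 28.1, 28.2, and 5.72 CPM in E-CAD- libraries. Of 8 trophoblast markers, *Elf5* was called (8.03, 16.4, and 5.89 CPM against 0, 0.349, and 0 CPM, FDR = 0.038), in none of the 6 omissions of a library, whereas *Cdx2* was at or below 3.27 CPM in every library. The median of these 8 was 2.15, with 6 above 0 and 2 below. At an unadjusted p under 0.05, 3 were higher and 0 lower, against 1236 and 641 of all 15630 genes. DESeq2 and limma-voom each called 2 of them higher, against 340 and 199 of all genes.

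Markers of further cell types that a MEF culture could hold gave 1 call. Among 7 neural and glial markers, *Tubb3* was lower in E-CAD+ cells (8.12, 6.90, and 9.18 CPM against 25.6, 25.1, and 65.6 CPM, FDR = 0.029), and the glial markers *Sox10* and *Gfap* were not called. Over all genes tested, 0.166% were lower. Of the 7 markers, 6 had a log2 difference below 0, with a median of -2.18, and the median was -4.60 in the 2NG- gate. None of 9 macrophage markers was called by edgeR, DESeq2, or limma-voom, and none had an unadjusted p under 0.05. Their summed level was 396, 374, and 26.1 CPM in E-CAD+ and 682, 768, and 65.1 CPM in E-CAD- libraries, most of it from *Lyz2* (lysozyme), at 344, 331, and 18.1 CPM against 604, 663, and 54.4 CPM. The defining *Ptprc* and *Csf1r* were at or below 2.38 and 4.53 CPM. Replicate 3 of both populations was thus lowest in these markers, and their part in the results was not tested. No endothelial (of 7), muscle (of 6), or primitive endoderm (of 8) marker was called by any of these tools, with 2, 0, and 0 at an unadjusted p under 0.05. The same held for 33 cell cycle genes (3 at that p, median 0.16), 14 AP-1 and early response genes (1), 15 imprinted genes (4), and 5 sex-linked genes (1). Of 14 interferon genes none was called by edgeR (3 at that p) and 1 by DESeq2, and of 34 *Hox* genes (median -1.14, 24 below 0) none by edgeR (3 at that p) and 1 by limma-voom. Of 15 glycolysis genes, the glucose transporter *Slc2a1* rose (1.30 ± 0.32, FDR = 0.02). Of the 15, 14 had a log2 difference above 0 (median 0.35). At an unadjusted p under 0.05, 5 were higher, against 1236 of all 15630 genes. Without E-CAD+ replicate 3 none was called and the median was 0.12. Of 10 surface antigens of reprogramming intermediates the tetraspanin *Cd9* rose (1.19 ± 0.32, FDR = 0.038). Over all genes tested, 1.59% rose.

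The 15 genes with the largest increase all had no read in any of the 3 E-CAD- libraries. Against a floor of 3 reads over the 12596857 reads of that group (0.238 CPM), the E-CAD+ level was at least 13.2-fold to at least 65.2-fold higher. *Tdrd12*, a Tudor-domain gene of the germline piRNA pathway, was at 7.14, 3.57, and 30.4 CPM (at least 47.9-fold higher, FDR = 0.00043). *Sdcbp2* (syntenin-2, a PDZ protein) was at 14.2, 17.9, and 1.18 CPM (at least 51.1-fold). *Hormad2* and *Hsf2bp*, both of meiotic chromosomes, were each at least 18.2-fold higher, and *Dkkl1*, an acrosomal protein of sperm, at least 31.4-fold. Of the rest, *Crxos1_loc2* (at least 65.2-fold) and *Crxos1_loc1* (at least 23.7-fold) are copies of one gene, and 71.9% and 95.4% of their reads had a unique position. Others were *2410141K09Rik*, *EU599041*, *Gm7325*, *Gm14393*, *Efcab10*, *Tmem30b*, and *Gm14124*, with average levels from 3.96 CPM upward, and for *Gm14393* only 39.6% of reads had a unique position. *Hormad2* was not called without E-CAD+ replicate 3 (FDR = 0.069).

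The 15 genes with the largest decrease in E-CAD+ cells were each separated in all libraries. *Igfbpl1*, a secreted IGF-binding protein-like gene, was at 0.357, 0.714, and 0 CPM in E-CAD+ and 14.7, 11.9, and 32.1 CPM in E-CAD- libraries (log2 difference -5.61 ± 1.31 SE, FDR = 0.014), and had no read in OKMS MEFs. *Tppp3* (a tubulin polymerization-promoting protein) was at 17.1, 25, and 12 CPM against 87.0, 79.1, and 203 CPM (-2.66 ± 0.49, FDR = 0.00086). *Dpysl2* (CRMP2, of growth cones) was at 14.8, 15.5, and 4.47 CPM against 45.2, 59.6, and 69.1 CPM (-2.21 ± 0.43, FDR = 0.0014), and *Mapt* (tau) at 1.25, 2.38, and 0 CPM against 6.28, 9.41, and 20.4 CPM (-3.18 ± 0.86, FDR = 0.04). *Mxd3*, a MAX-binding antagonist of MYC, was at 2.05, 0.476, and 0 CPM against 8.42, 9.06, and 16.1 CPM (-3.37 ± 0.69, FDR = 0.0023), and *Gli3*, a Hedgehog transcription factor, at 9.82, 6.19, and 8.71 CPM against 31.2, 33.5, and 37.3 CPM (-1.93 ± 0.46, FDR = 0.014). *Osmr*, the oncostatin M receptor, was at 5, 1.90, and 0.471 CPM against 18.3, 18.1, and 16.6 CPM (-2.63 ± 0.71, FDR = 0.044). *Lsp1* had 3 reads in all E-CAD+ libraries together, and the ratio of pooled levels was 29.1-fold lower with a 95% counting interval of 9.47 to 145. The remaining ones were *St3gal4*, *Khdrbs3*, *Serpinb1a*, *Tubb3*, *Zeb1*, *Tgfbi*, and *Fbn2*.

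The E-CAD difference was next set beside that of the 2NG- gate, where 3 E-CAD+ and 3 E-CAD- OKMS libraries, none shared with the 3NG- gate, gave 264 genes higher (1.69%) and 108 lower (0.691%) in E-CAD+ cells. Of the genes higher in 3NG-, 136 were also higher in 2NG-, which is 54.8% of the 3NG- list and 51.5% of the 2NG- list. Of the lower genes, 15 were shared, 57.7% of the 3NG- and 13.9% of the 2NG- list. The direction was the same in the other gate for 241 of the 248 and for 26 of the 26. The epithelial list had 24 genes higher in 2NG-, and the pluripotency list 14. *Cdh1* was at 159, 182, and 152 CPM against 20.5, 51.5, and 4.24 CPM there (2.87 ± 0.43, FDR = 5.3e-05).

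A test of the difference between the gates called 2 genes (0.0128% of genes tested). *Dtx1*, an E3 ligase that modulates Notch signaling, was at 6.34, 7.62, and 13.4 CPM in E-CAD+ and at 0.330, 0, and 0 CPM in E-CAD- 3NG- libraries, whereas it was at 6.48, 5.16, and 5.08 CPM and 3.98, 7.21, and 3.10 CPM in 2NG- libraries (difference of log2 differences 5.41 ± 1.03 SE, FDR = 0.047). *Serpini1* (neuroserpin) was at 3.39, 1.19, and 4.24 CPM and 0.165, 0, and 0 CPM in 3NG-, and at 4.77, 5.16, and 2.82 CPM and 3.98, 7.90, and 24.0 CPM in 2NG- libraries (6.40 ± 1.21, FDR = 0.047). Both rest on E-CAD- 3NG- libraries with 2 and 1 reads in all. The pooled E-CAD+ level in 3NG- was 51.3 times (95% counting interval 14 to 427) and 39.1 times (6.76 to 1569) that of E-CAD-. The calls depended on single libraries: of the 12 fits that left out 1 library of these populations, *Serpini1* passed in 2 and *Dtx1* in 1. *Gm14124* (FDR = 0.19), *Cdyl2* and *Tesk2* (both FDR = 0.23), and *Tubb3* and *Mgst3* (both FDR = 0.31) followed without passing. For *Cdh1* the difference was 0.88 ± 0.59 (FDR = 1).

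**Figure D4:**
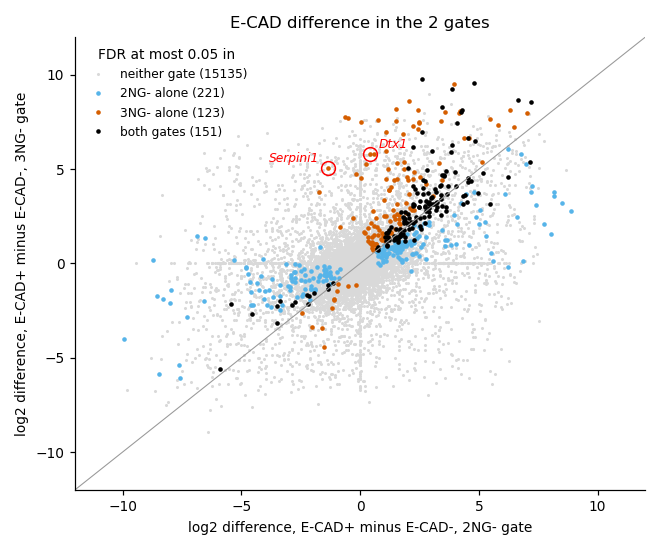
Log2 difference between E-CAD+ and E-CAD- cells for each gene tested in the 2NG- gate (x axis) and the 3NG- gate (y axis), colored by the gate in which it passed an FDR of 0.05 (counts in the legend). The 151 genes called in both gates lie in the upper right and lower left, and the 2 genes circled in red passed the test of the difference between the gates.

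Each library was placed on the line from the average of OKMS MEFs (0) to that of TNG OKMS ESCs (1), by projecting log2(CPM + 1) over the 15630 genes. E-CAD+ libraries lay at 0.575, 0.569, and 0.733 and E-CAD- libraries at 0.435, 0.476, and 0.468, so that each E-CAD+ library was closer to ESCs than every E-CAD- library. The means were 0.626 ± 0.093 and 0.460 ± 0.022 (SD, n = 3 each), a difference of 0.166 with p = 0.10 in a two-sided exact permutation test, the smallest that 3 against 3 libraries allow. Without the replicates numbered 3 the difference was 0.117, and without the 274 genes called it was 0.137. For reference, 3NG+ libraries lay at 0.851, 0.818, and 0.864, E-CAD+ 2NG- libraries at 0.677, 0.659, and 0.671, and E-CAD- 2NG- libraries at 0.499, 0.522, and 0.523.

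**Figure D5:**
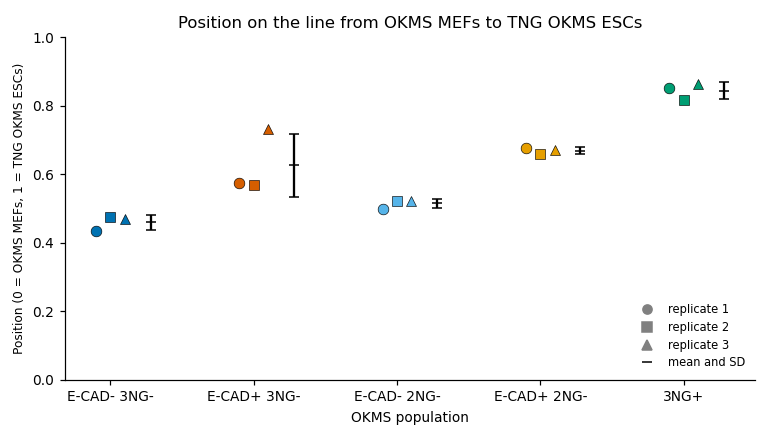
Position of each OKMS library on the line from OKMS MEFs (0) to TNG OKMS ESCs (1); symbols mark the replicate, and bars the mean and SD of 3 libraries. In the 3NG- gate the E-CAD- libraries lie between 0.435 and 0.476 and the E-CAD+ libraries between 0.569 and 0.733, replicate 3 being the highest.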

How the data were processed

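The deposited table holds whole-number read counts per transcript, made by the authors with the STRT pipeline from 10 ng of RNA of sorted cells, without normalization. The submitters' processing notes name Bowtie 0.12.7 and mm10, whereas the methods name another build. Positions in the table fell within 200 bases of the GRCm38 gene for 99.07% of 20698 shared symbols, and GRCm38 was used for promoters. Of the reads, 73.89% had a unique position. Repeats (1554 rows) and spikes (104 rows) were left out, which left 24264 transcripts, 19768 of them with a read. The authors' table of averages was not used.

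All 48 libraries in 20 conditions were fitted with edgeR 4.0.16 in R 4.3.3 (TMM scaling, filterByExpr, quasi-likelihood test, 15630 transcripts, common dispersion 0.217), and contrasts were taken between populations with Benjamini-Hochberg adjustment over all transcripts and an FDR limit of 0.05. The libraries held 1429717 to 14174720 reads. CPM values are unscaled. Folds against groups without reads used a floor of 3 reads over the group, and ratios with 1 to 3 reads have 95% counting intervals. These cover counting error only. Alternatives were DESeq2 1.42.0, limma-voom (limma 3.58.1), other scalings, no filter, the populations alone, a replicate block, and omissions of libraries. On simulated data 200 of 15096 genes were changed, 2-fold and 4-fold in equal numbers. There edgeR made 20 calls in E-CAD+ against E-CAD-, all of them changed genes, 19 of them changed 4-fold and 1 changed 2-fold. Most changed genes were thus missed, so an uncalled gene may still differ. DESeq2 made 62 calls, 55 of them changed genes, and limma-voom 26, of which 22 were changed genes. The simulation gave every gene the common dispersion and changed only genes above a minimum level.

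Named genes were the sorting and cassette genes, the 15 largest calls each way without overlap, up to 8 members per list with the smallest FDR and the best-known uncalled ones, and up to 10 genes from the test between gates. Other called epithelial genes were named after their values were seen. The comparison and the lists were chosen with earlier results of these data known. A few list members are counted but not reported by name here.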

Additional observations from a re-analysis of the deposited data

Results flagged for a closer look

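The test of the E-CAD difference in the 3NG- gate against that in the 2NG- gate passed for *Serpini1*, by 6.40 on the log2 scale, and for *Dtx1*, by 5.41 on the log2 scale (edgeR, FDR = 0.047 for both). Each had 2 or fewer reads in the 3 E-CAD- 3NG- libraries together.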

How the results depend on the processing

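The number of genes that differed between E-CAD+ and E-CAD- cells (274) became 416 with DESeq2 (340 higher), 660 without a filter on low counts (19768 tested), 101 with the compared populations alone (11067 tested), and 159 with the libraries of the authors' table of averages, which leaves out replicate 3 of both populations, and 154 to 303 when libraries were left out. With DESeq2 size factors, library sizes only, and limma-voom it was 258, 223, and 290. The higher share was 68.6% with limma-voom against 90.5%. The 2 genes that differed between the gates became 0 with DESeq2, 0 with the populations alone, 0 with the authors' libraries, 1 with limma-voom, 55 without the filter, and 0 to 3 when libraries were left out. Of the epithelial list 13 to 23 genes were called when libraries were left out, and of the pluripotency list 11 to 20, and 26 without the filter, 5 with the populations alone, and 10 with limma-voom. The difference in position stayed between 0.150 and 0.191 with other pseudocounts, transcripts, and axes, and between 0.117 and 0.203 when replicate numbers were left out. Lists without any call gained calls without the filter, 14 in the fibroblast, 3 in the actin, and 2 each in the BMP and imprinted lists, all lower. Over all genes, lower calls rose from 26 to 164 in that setting. The causes were not tested. Depth limits low genes: 3 reads were 0.268 to 1.05 CPM.

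No label says that a replicate number marks a shared culture or day. The deviations of same-numbered E-CAD+ and E-CAD- libraries were correlated at 0.107, 0.072, and 0.183, not all over the limit of 0.1 set for a pairing, so the block was kept as an alternative. As a hint from the data, each library correlated best with its own number in the other population. Replicate 3 libraries of both gates correlated negatively with all other numbers, but deviations from a mean of 3 libraries sum to 0. The negative values are therefore partly built in and are no separate hint. With a replicate block 323 genes were called (307 with the populations alone), 22 of the epithelial and 19 of the pluripotency list, 4 lower in the fibroblast list (5 with the populations alone) against 0 without the block, 5 lower in the matrix list (16) against 3, and 0 between the gates. The difference in position stays 0.166 with the block by construction, since the mean of the differences by replicate number equals the difference of the means.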

Other observations

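Several further genes, outside the rule for named genes and chosen after their values were seen, were higher in E-CAD+ cells of the 3NG- gate and were called in each of the 6 omissions of a library. *Gtsf1l*, a paralog of the piRNA pathway gene *Gtsf1*, was at 22.6, 18.6, and 40 CPM in E-CAD+ and at 0.826, 1.39, and 0.817 CPM in E-CAD- libraries (log2 difference 4.89 ± 0.47 SE, edgeR FDR = 1.4e-08). *Trap1a*, an X-linked tumor antigen gene, was at 23, 10, and 75.1 CPM against 0.826, 1.05, and 0 CPM (5.90 ± 0.86, FDR = 2.3e-05). *Ooep*, of the subcortical maternal complex of the egg, was at 19.2, 8.33, and 48.5 CPM against 0.33, 0, and 2.72 CPM (4.78 ± 0.85, FDR = 0.00054), and *Tex19.1*, a germline and placental gene, at 6.51, 5, and 19.3 CPM against 0.33, 0.697, and 0 CPM (5.01 ± 0.96, FDR = 0.0012). In these 4 genes E-CAD+ replicate 3 was the highest library and the groups did not overlap. *Gpx2*, a glutathione peroxidase of epithelia, was at 78.5, 62.4, and 43.6 CPM against 3.63, 3.14, and 0.544 CPM (4.70 ± 0.91, FDR = 0.0015), with replicate 3 the lowest of the E-CAD+ libraries.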
